A study of Homo sapiens with 6 samples.

Results

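The 10 genes described here encode transcription factors known from the mesenchyme of the developing lung: the forkhead factors FOXF1 and FOXF2, the T-box factors TBX2, TBX3, TBX4 and TBX5, the basic helix-loop-helix factor TCF21, the homeodomain factors MEIS1 and MEIS2, and GLI3, a zinc finger factor of the Hedgehog pathway. They were found by symbol in a table of read counts for 23355 genes, in which all 10 were present. The RNA came from HFL-1, an established line of fibroblasts grown from human fetal lung. They received a non-targeting siRNA (siNTC) or one of the TAZ siRNAs siTAZ #1 and siTAZ #2, and RNA was taken 48 h later, in 2 libraries per group and 6 in all. All groups received siRNA with the same lipid reagent, so no group was untransfected, and they came from a single cell line that was not otherwise treated. The submitters call the libraries of a group biological replicates. TAZ is a transcriptional coactivator, encoded by WWTR1, that reaches DNA through the TEAD factors.

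In the embryonic lung, the epithelium sends Hedgehog signals to the mesenchyme around it, where GLI factors carry them to target genes, with GLI3 acting mainly as a repressor in the absence of signal. FOXF1 and FOXF2 are expressed in mesenchyme that receives these signals, and TBX2 and TBX3, mainly repressors, and TBX4 and TBX5, mainly activators, act in the mesenchyme that drives growth and branching of the lung buds. TCF21 marks mesenchymal progenitors of lung fibroblasts, and MEIS proteins bind DNA together with PBX and HOX proteins.

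Counts summed to between 15648055 and 32078188 per library. In replicate 2 of siTAZ #1, which was the deepest library, the counts were nearly missing for the 561 tested genes from RANGAP1 on chromosome 22 through chromosomes X and Y. None of the 10 genes lies there. A fit without these genes ended no call reported for the 10 and added those of MEIS1 with siTAZ #1 (FDR 0.044), of FOXF2 and TBX3 with siTAZ #2 (FDR 0.044 and 0.034) and of TBX4 between the siRNAs (FDR 0.031). The libraries of a group varied beyond counting error, and outside that region their mean chi-square per gene was 5.38 (siNTC), 30.2 (siTAZ #1) and 11.7 (siTAZ #2). For the 10 genes alone, this mean was 16.1 (siNTC), 13.4 (siTAZ #1) and 9.885 (siTAZ #2), and so highest in siNTC. The defining genes of fibroblasts were high, with COL1A2, a chain of type I collagen, at 12240 and 12630 CPM in the siNTC libraries (counts scaled to a common library size with TMM factors) and DCN, the proteoglycan decorin, at 720 and 749 CPM. Markers of epithelium, endothelium and immune cells were lower than these genes, though not all near 0. With siNTC, the epithelial marker KRT18 was at 34.6 and 36.2 CPM. The endothelial marker TEK was at 41.2 and 41.0 CPM, and CD68 of immune cells at 73.8 and 75.1 CPM. The 8 smooth muscle markers summed to 1560 to 1725 CPM. KRT5, NKX2-1, SFTPB, SFTPC and SCGB1A1 of the epithelium, CDH5 of the endothelium and PTPRC, CD14, LYZ, CD3E and ITGAM of immune cells had under 10 counts in every library.

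WWTR1 itself was at 132 and 131 CPM in the siNTC libraries, at 26.4 and 28.4 CPM with siTAZ #1 and at 46.1 and 43.1 CPM with siTAZ #2. Both siRNAs lowered it, by a log2 fold change of -2.26 (siTAZ #1, FDR 0.00062) and -1.56 (siTAZ #2, FDR 0.00068). FDR stands here for the p-value of edgeR's quasi-likelihood test after Benjamini-Hochberg adjustment over the 14053 genes that passed the filter on low counts, and a gene is said to have risen or fallen when this is under 0.05.

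All 10 genes passed the filter, and each had at least 210 counts in every library. With siNTC, levels per kilobase of transcript ran from FOXF1, at 89.0 ± 12.6 CPM per kb (SD, n = 2), to GLI3, at 5.89 ± 0.412 CPM per kb. Between them came TCF21 at 38.5 ± 5.57, TBX2 at 36.9 ± 1.57, TBX3 at 28.0 ± 0.733, FOXF2 at 22.3 ± 0.257, MEIS1 at 22.2 ± 1.74, TBX5 at 16.4 ± 0.858, MEIS2 at 8.74 ± 1.24 and TBX4 at 7.44 ± 0.701 CPM per kb. The libraries of TCF21 and TBX2 overlapped, as did those of FOXF2 and MEIS1 and those of MEIS2 and TBX4, so these neighbours in the order did not differ beyond their spread. FOXF1 stayed the highest in both TAZ knockdowns, at 107 ± 5.08 CPM per kb with siTAZ #1 and 100.4 ± 7.91 CPM per kb with siTAZ #2. The lower end of the order changed. With siTAZ #1, TBX4 was the lowest, at 5.84 ± 1.34 CPM per kb, next to MEIS2 at 6.67 ± 0.00504 CPM per kb, and the libraries of these genes overlapped. With siTAZ #2, GLI3 was again the lowest, at 2.67 ± 0.0595 CPM per kb.

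**Figure D1:**
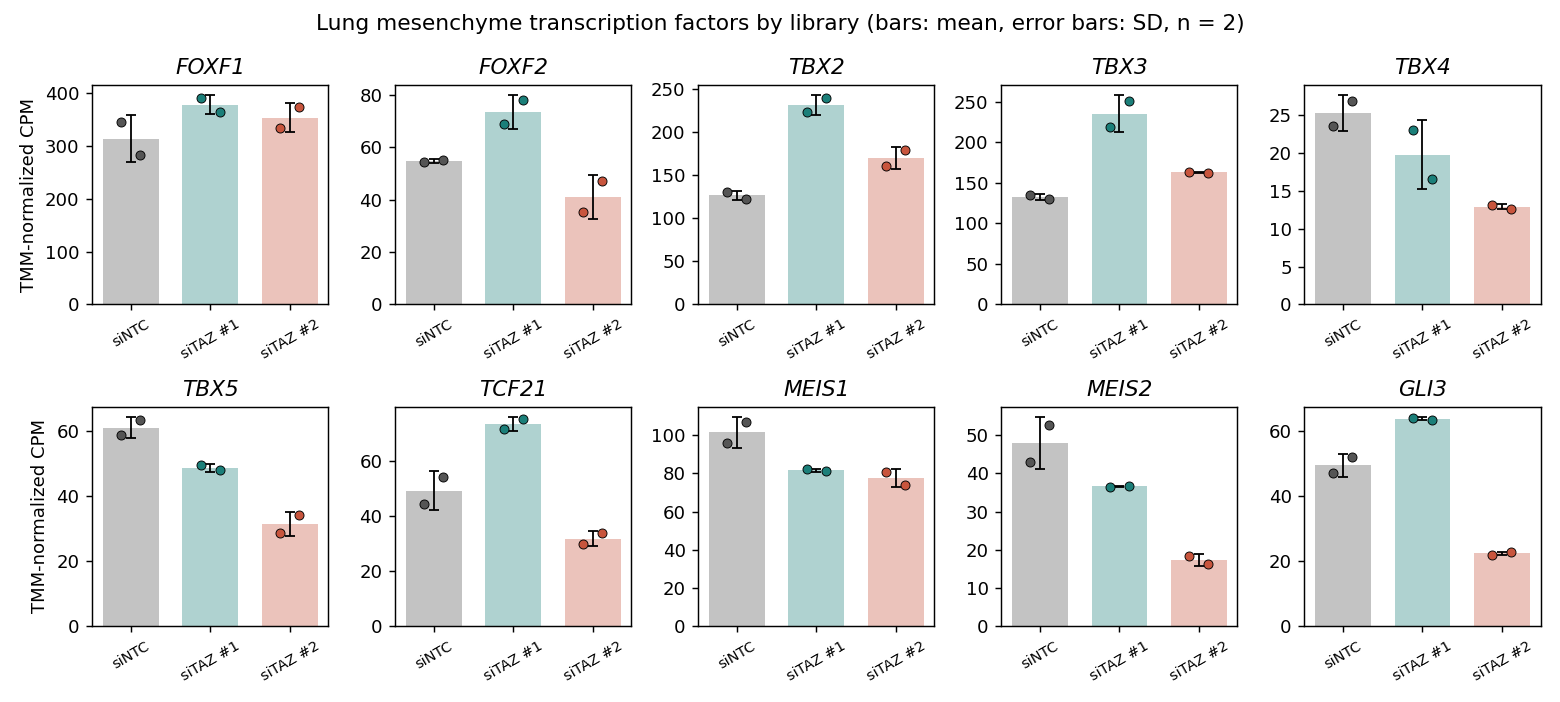
Level of each of the 10 transcription factors, as TMM-normalized CPM on a linear axis from 0, with its own scale for each gene. Points are the libraries of siNTC, siTAZ #1 and siTAZ #2, bars are the means and error bars the SD (n = 2). FOXF2, TBX4, TBX5, TCF21, MEIS1, MEIS2 and GLI3 have both siTAZ #2 libraries below every other library, MEIS1 by a small margin (80.8 against 81.0 CPM). TBX2 and TBX3 have all 4 siTAZ libraries above both siNTC libraries, as in 18.6% of all genes tested.

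On the GRCh37 assembly, the build of the deposited alignment, the genes lie on 7 chromosomes and 2 pairs of T-box genes are neighbours. TBX2 (chromosome 17, 59477204 to 59486827, plus strand) and TBX4 (59529765 to 59562471, plus strand) are 42.9 kb apart, and 1 gene of the table, C17orf82, lies between them. TBX5 (chromosome 12, 114791716 to 114846247, minus strand) and TBX3 (115108060 to 115121980, minus strand) are 262 kb apart, with no gene of the table between them. The others are FOXF1 (chromosome 16, 86544133 to 86549028, plus strand), FOXF2 (chromosome 6, 1389811 to 1395838, plus strand), TCF21 (chromosome 6, 134210251 to 134216691, plus strand), MEIS1 (chromosome 2, 66660584 to 66801001, plus strand), MEIS2 (chromosome 15, 37181405 to 37393500, minus strand) and GLI3 (chromosome 7, 42000547 to 42303699, minus strand). All are protein-coding genes. Antisense lncRNAs overlap TBX2, TBX3, TBX4, TBX5, TCF21, MEIS1 and MEIS2 in the GENCODE annotation, none of them with counts of its own in the table, and the strand setting of the counting is not given in the sources used here, so the reads of such a partner cannot be told apart from those of the gene.

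Promoter windows of RefSeq (table built on GRCh38.p14) were matched to 6 of the 10 genes, in 8 windows. They were placed on GRCh37 by an exact match of the 250 bases before the start. The windows of FOXF2, of TCF21, which moved in opposite directions with the siRNAs, and of the TBX5 transcript with the outermost start are shown here, since each ends at the base before its gene. Capitals mark the letters GGAATG, the core of the TEAD motif through which TAZ acts.
FOXF2, chr6:1389561-1389810, plus strand: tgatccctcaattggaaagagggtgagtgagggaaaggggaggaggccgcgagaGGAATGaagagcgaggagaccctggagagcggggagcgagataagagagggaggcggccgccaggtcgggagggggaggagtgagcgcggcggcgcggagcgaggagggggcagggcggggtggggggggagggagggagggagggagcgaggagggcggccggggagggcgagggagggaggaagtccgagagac
TCF21, chr6:134210001-134210250, plus strand: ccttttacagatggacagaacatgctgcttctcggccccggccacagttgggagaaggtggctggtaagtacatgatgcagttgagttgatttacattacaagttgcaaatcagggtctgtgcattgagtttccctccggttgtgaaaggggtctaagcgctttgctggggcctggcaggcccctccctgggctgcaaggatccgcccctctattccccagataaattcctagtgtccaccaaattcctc
TBX5, chr12:114846248-114846497, minus strand: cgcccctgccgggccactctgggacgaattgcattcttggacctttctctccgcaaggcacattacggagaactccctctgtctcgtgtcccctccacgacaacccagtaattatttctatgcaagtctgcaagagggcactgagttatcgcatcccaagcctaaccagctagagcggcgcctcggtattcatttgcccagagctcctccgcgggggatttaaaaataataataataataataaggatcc
The FOXF2 window overlaps no annotated gene, while all 250 bases of the TCF21 window lie in an exon of its antisense lncRNA TARID and those of the TBX5 window in an exon of TBX5-AS1.

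Both strands of the windows were searched for the TEAD letters GGAATG, the forkhead letters TGTTTAC, the T-box letters GGTGTGA, the MEIS letters TGACAG and the GLI letters GACCACCCA. The TEAD letters stood in 1 of the 8 windows, that of FOXF2, 196 bases before the start, and in 11.9% of all 35116 windows of the table. The MEIS letters stood in 1 of the 8, another TBX5 window, against 13% of all windows. The forkhead, T-box and GLI letters were found in none of the 8, against 2.98%, 2.76% and 0.199% of all windows. A match of these letters is a description of the window and not a binding site.

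The siRNAs moved the 10 genes differently. With siTAZ #1, 3 of the 10 rose (TBX2, TBX3 and TCF21), beside 10.8% of all genes tested, and 0 fell, beside 9.78%. At an unadjusted p under 0.05, 3 were lower with siTAZ #1 (TBX5, MEIS1 and MEIS2), beside 16.6% of all genes, and 1 gene was called lower by DESeq2 and 0 by edgeR's exact test. With siTAZ #2, 6 of the 10 fell (TBX4, TBX5, TCF21, MEIS1, MEIS2 and GLI3), beside 14.4% of all genes tested, and TBX2 rose, beside 14.1%. On the log2 scale, the 10 genes had a median change of 0.32 with siTAZ #1 and of -0.52 with siTAZ #2, while all genes tested had 0.02 in each. These comparisons share the siNTC libraries. In the direct comparison, 7 of the 10 were higher with siTAZ #1 than with siTAZ #2, beside 15.2% of all genes tested, and 0 were lower, beside 13.4%, also at an unadjusted p under 0.05 and in DESeq2 and the exact test. All but FOXF1 had both siTAZ #1 libraries above both siTAZ #2 libraries, 9 of the 10 beside 32.6% of all genes tested.

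The counts changed when 1 library was left out, which leaves a lone library in that group. With siTAZ #1, TBX2, TBX3 and TCF21 had log2 fold changes of 0.87, 0.83 and 0.57 in the fit of all libraries. These were 0.82, 0.79 and 0.72 without siNTC replicate 2. Without siNTC replicate 2, the number that rose with siTAZ #1 was 0. The number that fell with siTAZ #2 was 3 when siNTC replicate 2 or either siTAZ #2 library was left out, while TBX5, MEIS2 and GLI3 fell with siTAZ #2 under all 19 alternatives tried. The 7 genes higher with siTAZ #1 than with siTAZ #2 became 3 without siTAZ #2 replicate 1, and these were TCF21, MEIS2 and GLI3.

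**Figure D2:**
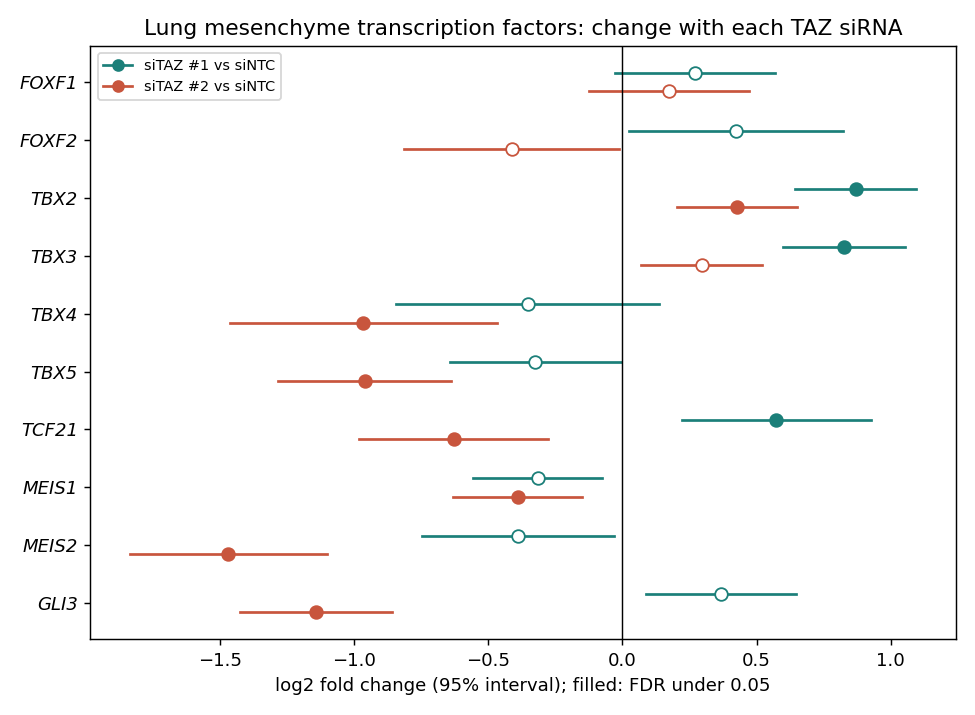
log2 fold change of each of the 10 genes with siTAZ #1 and with siTAZ #2 against siNTC, by edgeR on 2 libraries per group. Bars are 95% intervals and filled points have an FDR under 0.05. For TCF21 both points are filled and lie on opposite sides of 0, and the values of GLI3 are 0.37 with siTAZ #1 and -1.14 with siTAZ #2.

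GLI3, the Hedgehog effector that serves mainly as a repressor, differed most between the siRNAs. It was at 47.0 and 51.9 CPM with siNTC, at 64.2 and 63.5 CPM with siTAZ #1 and at 22.1 and 22.8 CPM with siTAZ #2. The 3 groups did not overlap, with the siTAZ #1 libraries highest and the siTAZ #2 libraries lowest. GLI3 fell 2.21-fold with siTAZ #2 (log2 fold change -1.14, standard error 0.12, FDR 0.002). With siTAZ #1, its log2 fold change was 0.37 (95% interval 0.09 to 0.65), which did not pass the test (FDR 0.072) but did with an offset for GC content (0.45, FDR 0.032). The siRNAs differed by 1.51 (standard error 0.12, FDR 0.001), and this call and the fall with siTAZ #2 held under all alternatives, with a highest FDR of 0.015 and 0.026.

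MEIS2, a TALE homeodomain factor, had the lowest log2 fold change of the 10 with siTAZ #2. Its level was 43.1 and 52.8 CPM with siNTC, 36.6 CPM in both siTAZ #1 libraries, and 18.4 and 16.3 CPM with siTAZ #2. Both knockdowns lay below both siNTC libraries, and siTAZ #2 lay below siTAZ #1. MEIS2 fell 2.77-fold with siTAZ #2 (log2 fold change -1.47, standard error 0.15, FDR 0.002). With siTAZ #1, the value was -0.39 (95% interval -0.75 to -0.03, FDR 0.12). Set against each other, the siRNAs differed by 1.08 (standard error 0.15, FDR 0.0047).

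Its relative MEIS1 did not show that difference. MEIS1 was at 95.9 and 107 CPM with siNTC, 82.1 and 81.0 CPM with siTAZ #1 and 80.8 and 74.1 CPM with siTAZ #2. All 4 siTAZ libraries lay below both siNTC libraries, an arrangement that 4 of the 10 genes (TBX4, TBX5, MEIS1 and MEIS2) and 17.5% of all genes tested had. MEIS1 fell with siTAZ #2 by 0.39 on the log2 scale (standard error 0.10, FDR 0.033), while the value with siTAZ #1 was -0.32 (95% interval -0.56 to -0.08, FDR 0.074). The 95% interval of the difference between the siRNAs ran from -0.17 to 0.32. MEIS1 no longer passed with siTAZ #2 when either siNTC library was left out (FDR 0.079 and 0.17) or either siTAZ #2 library (FDR 0.081 and 0.13).

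TCF21, the basic helix-loop-helix factor of lung fibroblast progenitors, was called in both knockdowns with opposite signs, alone among the 10 in this test, which 0.825% of all genes tested did in this order. Its level was 44.3 and 54.3 CPM with siNTC. It was 71.6 and 75.2 CPM with siTAZ #1 and 29.9 and 33.8 CPM with siTAZ #2, so that the 3 groups were apart. TCF21 rose 1.49-fold with siTAZ #1 (log2 fold change 0.57, standard error 0.14, FDR 0.04). It fell 1.55-fold with siTAZ #2 (log2 fold change -0.63, standard error 0.14, FDR 0.024). The siRNAs differed by 1.20 (standard error 0.15, FDR 0.0031), a call that held under all alternatives (highest FDR 0.028). With siTAZ #1, TCF21 did not pass in 8 of the 19 alternatives. Among them were edgeR's exact test (FDR 0.42) and the fit of 4 libraries (FDR 0.065). No filter on low counts (FDR 0.057) and the replicate block (FDR 0.054) were others. The rest each left out 1 library. The log2 fold change was then 0.42 without siNTC replicate 1 and 0.72 without siNTC replicate 2. It was 0.57 without siTAZ #2 replicate 1 and 0.56 without siTAZ #2 replicate 2. The fall with siTAZ #2 did not pass the test when siNTC replicate 2 (FDR 0.13), siTAZ #2 replicate 1 (FDR 0.12) or siTAZ #2 replicate 2 (FDR 0.066) was left out.

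TBX2 and TBX3, T-box factors that mainly repress transcription, rose with siTAZ #1. TBX2 was at 131 and 123 CPM with siNTC, 223.5 and 239.5 CPM with siTAZ #1 and 161 and 179 CPM with siTAZ #2. For TBX3 these values were 135 and 130.1 CPM, 219 and 251 CPM, and 163 CPM in both siTAZ #2 libraries. In both genes, all 4 siTAZ libraries were above both siNTC libraries, as in 18.6% of all genes tested, and the siTAZ #1 libraries were above those of siTAZ #2. TBX2 rose 1.83-fold with siTAZ #1 (log2 fold change 0.87, standard error 0.09, FDR 0.0033) and TBX3 1.77-fold (log2 fold change 0.83, standard error 0.09, FDR 0.0038). With siTAZ #2, TBX2 rose by 0.43 on the log2 scale (standard error 0.09, FDR 0.02), and TBX3 had 0.30 (95% interval 0.07 to 0.52, FDR 0.059).

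TBX2 was the 1 gene of the 10 called higher with both siRNAs, beside 5.49% of all genes tested, and 0 of the 10 were called lower with both, beside 3.74%. Its transcript has a GC content of 66.1%, and the genes of the highest of 10 bins by GC content, where it falls, had a median of 0.11 on the log2 scale with siTAZ #1 and of 0.43 with siTAZ #2. With an offset for GC content, the value of TBX2 with siTAZ #2 turned to -0.10 (FDR 0.42). Without siNTC replicate 2, neither TBX2 (FDR 0.051) nor TBX3 (FDR 0.056) passed the test with siTAZ #1. The rise of TBX2 with siTAZ #2 did not pass when siNTC replicate 1 (FDR 0.1), siNTC replicate 2 (FDR 0.15) or siTAZ #2 replicate 2 (FDR 0.12) was left out. Between the siRNAs, TBX2 differed by 0.44 (FDR 0.017) and TBX3 by 0.53 (FDR 0.0097). Neither difference passed without siTAZ #2 replicate 1 (FDR 0.089 and 0.058), nor that of TBX3 without siTAZ #2 replicate 2 (FDR 0.061).

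TBX4 and TBX5, the T-box factors that mainly activate transcription, fell with siTAZ #2. TBX5 was at 58.8 and 63.3 CPM with siNTC, 49.6 and 47.9 CPM with siTAZ #1 and 28.7 and 34.1 CPM with siTAZ #2, in 3 groups that did not overlap. TBX5 fell 1.95-fold with siTAZ #2 (log2 fold change -0.96, standard error 0.13, FDR 0.0047, highest FDR over the alternatives 0.048). With siTAZ #1, its value was -0.32 (95% interval -0.64 to -0.01, FDR 0.14), and the difference of 0.64 between the siRNAs passed the test (FDR 0.017), though not without siTAZ #2 replicate 1 (FDR 0.081). TBX4, the least counted of the 10, was at 23.6 and 27.0 CPM with siNTC, 23.03 and 16.59 CPM with siTAZ #1 and 13.2 and 12.7 CPM with siTAZ #2. Its siTAZ #2 libraries were the lowest, and the siTAZ #1 libraries were wide apart. TBX4 fell 1.95-fold with siTAZ #2 (log2 fold change -0.97, standard error 0.20, FDR 0.018). This call was lost whichever of the 4 siNTC and siTAZ #2 libraries was left out (FDR 0.073, 0.11, 0.087 and 0.097), with a value between -1.08 and -0.88. With siTAZ #1, TBX4 had a value of -0.35 (95% interval -0.84 to 0.14, FDR 0.27), and without siTAZ #1 replicate 1 it was -0.61 (FDR 0.034). The difference between the siRNAs, 0.61 (FDR 0.07), passed without siTAZ #1 replicate 2 (0.84, FDR 0.0042).

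Within each library, the ratio of counts between neighbouring T-box genes does not depend on how libraries are scaled. It carries no offset for GC content, which is 66.1% for the TBX2 transcript and 52.7% for that of TBX4. With siTAZ #2, the genes in the GC bins of TBX2 and TBX4 had medians of 0.43 and -0.07. Those in the bins of TBX3 and TBX5 had -0.07 and -0.10. TBX2 had 5.54 and 4.56 times the counts of TBX4 with siNTC, 9.70 and 14.4 times with siTAZ #1 and 12.2 and 14.1 times with siTAZ #2. For TBX3 over TBX5, the ratio was 2.30 and 2.06 with siNTC, 4.41 and 5.25 with siTAZ #1 and 5.68 and 4.77 with siTAZ #2. In both pairs, each siTAZ library had a higher ratio than each siNTC library, and the ratios of the siRNAs overlapped. This separation follows from the values of the single genes above and was not tested apart from them.

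**Figure D3:**
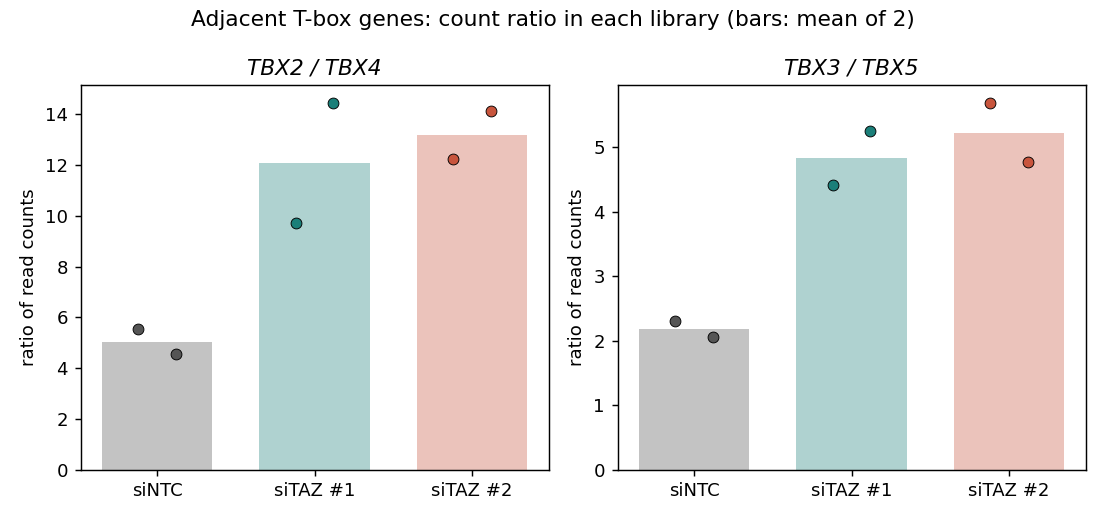
Ratio of read counts of TBX2 to TBX4, neighbours on chromosome 17, and of TBX3 to TBX5, neighbours on chromosome 12, on linear axes from 0. Points are the libraries and bars the mean of 2. In both pairs the 4 siTAZ libraries lie above both siNTC libraries. The ratios carry no offset for GC content.

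Neither forkhead factor passed the quasi-likelihood test against siNTC, though FOXF2 did in other tests. FOXF1, the most abundant of the 10 genes per kilobase, was at 345 and 282 CPM with siNTC, 390.3 and 365 CPM with siTAZ #1 and 334 and 373 CPM with siTAZ #2. The siTAZ #2 libraries overlapped those of siNTC, and the siNTC libraries were nearly as far apart as the means of siNTC and siTAZ #1. On the log2 scale, FOXF1 had 0.27 with siTAZ #1 (95% interval -0.03 to 0.57, FDR 0.18) and 0.17 with siTAZ #2 (95% interval -0.12 to 0.47, FDR 0.34), and no alternative brought it past the threshold.

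FOXF2, the relative of FOXF1 that is also expressed in gut mesenchyme, was at 54.2 and 55.1 CPM with siNTC. It was at 68.8 and 77.8 CPM with siTAZ #1 and at 35.2 and 47.0 CPM with siTAZ #2, so that the groups stood on opposite sides of siNTC. FOXF2, TCF21 and GLI3 were the 3 genes of the 10 with this arrangement, which 7.29% of all genes tested had. Against siNTC, FOXF2 passed the test with neither siRNA (log2 fold change 0.42, FDR 0.12, with siTAZ #1 and -0.41, FDR 0.11, with siTAZ #2). DESeq2 called it higher with siTAZ #1 (FDR 0.042) and lower with siTAZ #2 (FDR 0.038). With siTAZ #2, it also passed in edgeR's exact test (FDR 0.012), in the fit of 4 libraries (FDR 0.02), without the genes from RANGAP1 to Y (FDR 0.044) and without siTAZ #1 replicate 1 (FDR 0.019) or 2 (FDR 0.018), and with siTAZ #1 without siTAZ #1 replicate 1 (FDR 0.017). Between the siRNAs, FOXF2 differed by 0.84 (standard error 0.16, FDR 0.014), or by 0.64 without siTAZ #2 replicate 1 (FDR 0.054). The GC content of its transcript is 63.6%, in the same bin as TBX2, and with an offset for GC content the value with siTAZ #2 was -0.79 (FDR 0.013).

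Both forkhead members have other forkhead genes beside them, named here for their place. FOXL1, a forkhead gene of the gut mesenchyme that lies 60.9 kb from FOXF1, rose with both siRNAs, from 77.6 and 76.2 CPM with siNTC to 198 and 213 CPM with siTAZ #1 (log2 fold change 1.42, FDR 0.00084) and to 184 and 198 CPM with siTAZ #2 (log2 fold change 1.31, FDR 0.00068). FOXC2, 51.4 kb from FOXF1 and under 6 CPM in every library, had 0.10 (FDR 0.82) and -0.41 (FDR 0.29). Near FOXF2, FOXQ1 at 74.8 kb had 1.41 (FDR 0.16) with siTAZ #1 and 1.56 (FDR 0.11) with siTAZ #2, and FOXC1 at 214 kb had 0.66 (FDR 0.19) and -0.60 (FDR 0.21). Of 31 other forkhead genes, 20 were tested. With siTAZ #1, 4 fell and 2 rose, where 9.78% and 10.8% of all genes tested did, and with siTAZ #2, 5 fell and 4 rose, where 14.4% and 14.1% did. FOXD1, a factor of kidney stroma, rose with both siRNAs (1.52 and 0.57, FDR 0.0011 and 0.013), while FOXJ2 fell with siTAZ #2 (-1.46, FDR 0.00092) and had 0.14 with siTAZ #1 (FDR 0.41), and FOXE1 fell with siTAZ #2 from a low level (-1.54, FDR 0.025). FOXL1 with both siRNAs, FOXD1 with siTAZ #1 and FOXJ2 passed under all alternatives. FOXE1 and FOXD1 with siTAZ #2 did not pass when any siNTC or siTAZ #2 library was left out, and FOXD1 with siTAZ #2 was 0.01 with an offset for GC content (FDR 0.95).

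A list of 19 other Hedgehog pathway genes had 16 tested, since the ligands SHH, IHH and DHH were below the filter. With siTAZ #1, 1 fell (HHAT), beside 9.78% of all genes tested. In the quasi-likelihood test, 0 were higher with siTAZ #1, beside 10.8% of all genes tested. The number higher was also 0 in DESeq2, in edgeR's exact test and at an unadjusted p under 0.05. With siTAZ #2, 6 rose (PTCH1, HHIP, BOC, HHAT, SMO and KIF7) and 1 fell (GAS1), beside 14.1% and 14.4% of all genes tested, and the median of the 16 genes was 0.38, where all genes tested had 0.02. PTCH1, the receptor of Hedgehog ligands and itself a target of the pathway, was at 24.7 and 31.4 CPM with siNTC, 20.3 and 23.4 CPM with siTAZ #1 and 62.3 and 57.1 CPM with siTAZ #2. The siTAZ #2 libraries were the highest, and PTCH1 rose by 1.09 on the log2 scale (standard error 0.16, FDR 0.0064). HHIP, which binds Hedgehog ligands outside the cell, went from 4.88 and 2.52 CPM to 15.0 and 17.6 CPM with siTAZ #2 (log2 fold change 2.14, FDR 0.0076), and BOC, a coreceptor, had 1.59 (FDR 0.012).

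GLI1, which the active pathway induces, was at 9.70 and 12.1 CPM with siNTC, 9.36 and 5.43 CPM with siTAZ #1 and 6.31 and 5.62 CPM with siTAZ #2. Its values against siNTC, -0.57 (FDR 0.25) and -0.87 (FDR 0.087), did not pass the test. HHAT, which attaches a lipid to Hedgehog ligands, fell with siTAZ #1 (-1.07, FDR 0.048) and rose with siTAZ #2 (2.38, FDR 0.003), from 4.18 and 4.29 CPM with siNTC. Its fall was lost in 10 of the 19 alternatives, edgeR's exact test, library totals and the offset for GC content among them. The rise of BOC with siTAZ #2 was lost in 3 of the 19, each with 1 library left out. GAS1, SMO and KIF7 are named for completing the counts, after their values were seen. GAS1, a coreceptor, fell with siTAZ #2 (-1.07, FDR 0.017), and SMO, the transducer of the signal, and the kinesin KIF7 rose (0.48, FDR 0.043, and 0.94, FDR 0.031). With an offset for GC content, SMO had 0.18 (FDR 0.26) and KIF7 0.54 (FDR 0.13), and neither passed when any siNTC or siTAZ #2 library was left out. The count ratio of GLI3 to GLI2, the other large GLI factor, was 1.323 and 1.496 with siNTC, 1.95 and 2.18 with siTAZ #1 and 0.576 and 0.812 with siTAZ #2. The 3 groups were apart, and GLI2 had -0.18 (FDR 0.52) and -0.08 (FDR 0.77). HHAT with siTAZ #2 passed under all alternatives, PTCH1 under all but leaving out siNTC replicate 1 (FDR 0.052) and HHIP under all but leaving out siTAZ #2 replicate 2 (FDR 0.053). The number that rose with siTAZ #2 was 2 without siNTC replicate 1 or siTAZ #2 replicate 2 and 3 without siNTC replicate 2, GAS1 was lost with any siNTC or siTAZ #2 library left out, and HHAT did not pass with siTAZ #1 when either siNTC library was left out (highest FDR over the alternatives 0.18).

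**Figure D4:**
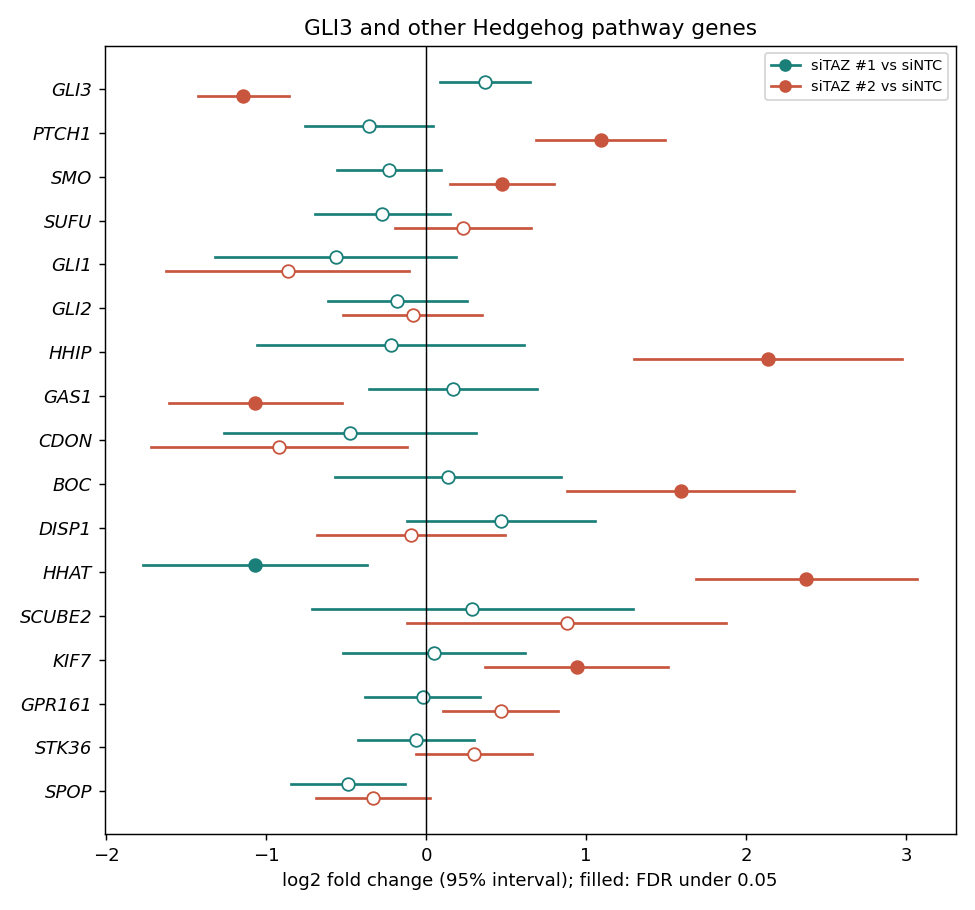
log2 fold change against siNTC of GLI3 and of the 16 other Hedgehog pathway genes tested, with siTAZ #1 and siTAZ #2. Bars are 95% intervals and filled points have an FDR under 0.05. With siTAZ #2, GLI3 (-1.14) and GAS1 (-1.07) fell and 6 genes rose, up to 2.38 for HHAT.

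Among 14 other TALE homeodomain genes, 9 were tested. They include the PBX proteins, the partners with which MEIS proteins bind DNA. With siTAZ #1, 0 passed edgeR's quasi-likelihood test, where 9.78% of all genes tested fell and 10.8% rose. At an unadjusted p under 0.05, 0 were lower with siTAZ #1, beside 16.6% of all genes tested. At this threshold 2 were higher, for which no share of all genes is given here, so this count cannot be judged against it. DESeq2 and edgeR's exact test each called 1 higher and 0 lower. PBX3 went from 42.0 and 43.5 CPM with siNTC to 35.9 and 41.1 CPM with siTAZ #1 and to 17.8 and 17.5 CPM with siTAZ #2, where it fell (-1.28, FDR 0.0018). The siTAZ #2 libraries were the lowest, and PBX3 differed between the siRNAs by 1.13 (FDR 0.0025).

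PBX2 was at 138 and 127 CPM with siNTC and at 124 and 131 CPM with siTAZ #1, and it fell to 81.5 and 93.4 CPM with siTAZ #2 (-0.60, FDR 0.0092). With siTAZ #2, 3 of these TALE genes fell (14.4% of all genes tested), the other being TGIF1, named after its values were seen (-0.46, FDR 0.021). The 3 that rose with siTAZ #2, beside 14.1% of all genes, were PKNOX2 (0.95, FDR 0.024), MEIS3 (0.88, FDR 0.049) and PKNOX1 (0.54, FDR 0.031, named for completing the count), of which PKNOX2 and MEIS3 were below 25 CPM in every library. PBX3 with siTAZ #2 passed under all alternatives (highest FDR 0.026). PBX2 did not pass when siNTC replicate 1, siNTC replicate 2 or siTAZ #2 replicate 1 was left out (highest FDR 0.072), and 0 genes rose with siTAZ #2 when any siNTC or siTAZ #2 library was left out. With the replicate number as a block, 0 rose with siTAZ #2. MEIS3 was lost in 8 of the 19 alternatives, upper-quartile scaling and the offset for GC content among them. The count ratio of MEIS1 to MEIS2 was 2.22 and 2.03 with siNTC, 2.24 and 2.21 with siTAZ #1 and 4.40 and 4.56 with siTAZ #2, with the siTAZ #2 libraries above the rest and an overlap of the other groups.

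**Figure D5:**
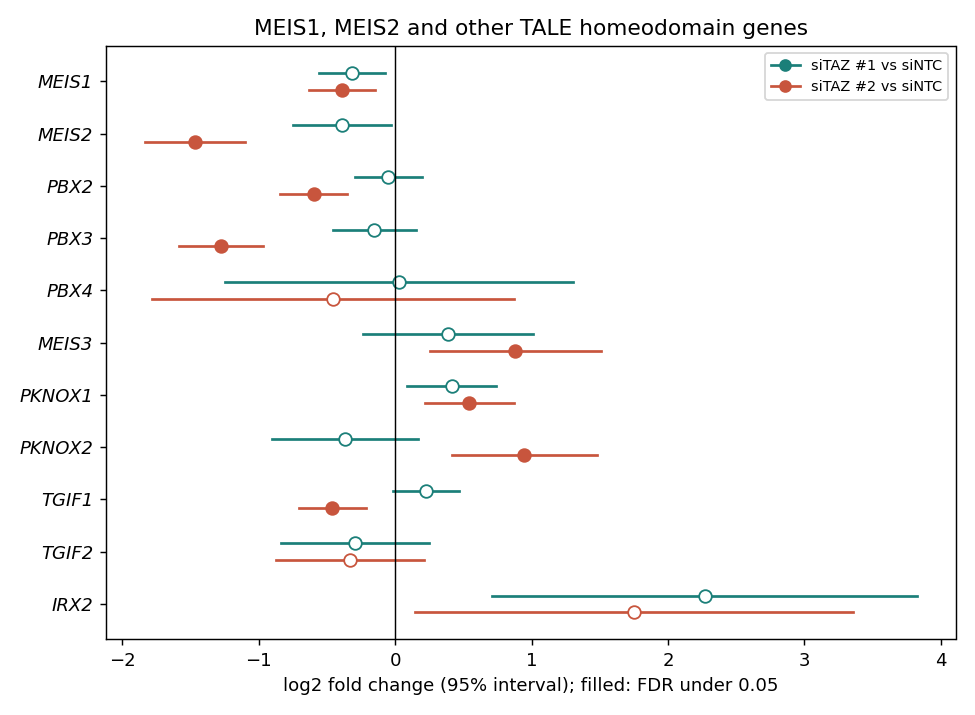
log2 fold change against siNTC of MEIS1, MEIS2 and the 9 other TALE homeodomain genes shown, with siTAZ #1 and siTAZ #2. Bars are 95% intervals and filled points have an FDR under 0.05. With siTAZ #2, MEIS2 (-1.47), PBX3 (-1.28), PBX2 (-0.60), TGIF1 (-0.46) and MEIS1 (-0.39) have filled points below 0. PKNOX2 (0.95), MEIS3 (0.88) and PKNOX1 (0.54) have filled points above 0 with siTAZ #2. With siTAZ #1 all points are open.

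TCF21 binds DNA together with E proteins. Of 14 genes for related helix-loop-helix factors, their E protein partners and the ID inhibitors, 13 were in the table and 11 were tested, of which 2 fell and 2 rose with siTAZ #1 (9.78% and 10.8% of all genes tested), and 1 fell and 3 rose with siTAZ #2 (14.4% and 14.1%). TCF12, an E protein, fell from 405 and 393 CPM with siNTC to 316 and 310 CPM with siTAZ #1 (-0.35, FDR 0.021) and to 243 and 245 CPM with siTAZ #2 (-0.71, FDR 0.0019). TCF4, another E protein, moved opposite to TCF21 in each knockdown. It fell from 81.8 and 76.2 CPM to 43.1 and 48.6 CPM with siTAZ #1 (-0.79, FDR 0.0056) and rose to 107 and 108 CPM with siTAZ #2 (0.44, FDR 0.024). ID1, which binds E proteins and keeps them from DNA, rose with both (0.75, FDR 0.038, and 0.84, FDR 0.021). MSC, or musculin, a near relative of TCF21, had 0.26 with siTAZ #1 (FDR 0.28) and rose with siTAZ #2 (1.06, FDR 0.0056). TCF12 with siTAZ #2 passed under all alternatives (highest FDR 0.03). TCF12 and ID1 with siTAZ #1 did not pass when either siNTC library was left out, TCF4 with siTAZ #1 and MSC with siTAZ #2 did not without siNTC replicate 1 (FDR 0.056 for MSC), and TCF4 and ID1 with siTAZ #2 did not when any 1 of the siNTC and siTAZ #2 libraries was left out (highest FDR 0.16 and 0.12).

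Of 13 other T-box genes, 3 were tested, and 0 passed the quasi-likelihood test in any comparison, also at an unadjusted p under 0.05 and in DESeq2, while edgeR's exact test called 1 higher with siTAZ #2. The share of all genes tested that was called in 1 direction ran from 9.78% to 15.2% over the comparisons. Of 13 secreted signals of lung mesenchyme, 12 were tested. With siTAZ #1, 2 fell and 3 rose (9.78% and 10.8% of all genes tested), and with siTAZ #2, 3 fell and 4 rose (14.4% and 14.1%). WNT2, a signal by which mesenchyme instructs the lung epithelium, fell from 14.3 and 17.5 CPM with siNTC to 4 and 1.90 CPM with siTAZ #1 (-2.46, FDR 0.011) and to 4.25 and 3.32 CPM with siTAZ #2 (-2.07, FDR 0.013). WNT5A, a noncanonical Wnt ligand, rose from 266 and 279.6 CPM to 339 and 388 CPM with siTAZ #1 (0.41, FDR 0.039) and to 816 and 729.9 CPM with siTAZ #2 (1.502, FDR 0.00076). TGFB3 fell with siTAZ #2 (-1.65, FDR 0.0057) and had -0.63 with siTAZ #1 (FDR 0.11), and IGF1, at most 1.39 CPM in any library, fell with siTAZ #1 (-2.40, FDR 0.038). BMP4, a growth factor of the lung bud, was at 105 and 90.7 CPM with siNTC, 91.7 and 64.5 CPM with siTAZ #1 and 79.7 and 133 CPM with siTAZ #2, in groups that overlapped. FGF10, a mesenchymal signal for branching, had 4 to 14 counts and was below the filter. WNT5A and TGFB3 with siTAZ #2 passed under all alternatives (highest FDR 0.02 and 0.046), while WNT2 with either siRNA and WNT5A and IGF1 with siTAZ #1 did not pass when either siNTC library was left out (highest FDR 0.079 and 0.088 for WNT2).

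Other marker genes moved with siTAZ #2 as well. The summed level of 8 smooth muscle markers was 1560 to 1725 CPM with siNTC, 1505 to 1889 CPM with siTAZ #1 and 950 to 1017 CPM with siTAZ #2, where 5 fell and 2 rose, beside 14.4% and 14.1% of all genes tested. Among them LMOD1 (-2.20, FDR 0.00084), ACTG2 (-0.95, FDR 0.0032) and TAGLN (-0.81, FDR 0.021) fell and DES (0.99, FDR 0.039) rose. The 10 fibroblast markers summed to 43000 to 43090 CPM with siNTC, 31480 to 33800 CPM with siTAZ #1 and 33350 to 35110 CPM with siTAZ #2. Of these, 4 fell and 2 rose with siTAZ #1, beside 9.78% and 10.8% of all genes tested. With siTAZ #2, 6 fell and 2 rose, beside 14.4% and 14.1%. LUM (-0.54 and -1.93), DCN (-0.66 and -1.59) and COL1A2 (-1.01 and -0.77) fell with both siRNAs. Over the alternatives, the values of COL1A2 ran from -1.18 to -0.86 with siTAZ #1 and from -0.91 to -0.67 with siTAZ #2. PDGFRA, the receptor that marks lung fibroblasts, rose with siTAZ #1 (1.72, FDR 0.00084) and had 0.26 with siTAZ #2 (FDR 0.11). The 2 that rose with siTAZ #2, PDGFRB (0.54, FDR 0.0051) and THY1 (0.50, FDR 0.01), are named for completing the count and did not pass when either siNTC library was left out, nor did THY1 without siTAZ #2 replicate 2.

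The markers of other cell types were a small share. The 10 epithelial markers summed to 46.1 to 46.6 CPM with siNTC, 41.6 to 49.0 CPM with siTAZ #1 and 59.5 to 65.1 CPM with siTAZ #2, and the 5 mesothelial ones to 7.45 to 9.95, 7.10 to 9.14 and 14.2 to 15.5 CPM. The 8 endothelial ones summed to 42.8 to 43.3 CPM with siNTC, 47.4 to 48.3 CPM with siTAZ #1 and 27.7 to 32.9 CPM with siTAZ #2, and the 7 immune ones to 75.2 to 75.7, 70.2 to 76.3 and 40.5 to 49.9 CPM. With siTAZ #2, TEK (-0.67, FDR 0.013), CD68 (-0.79, FDR 0.012) and KRT19 (-1.59, FDR 0.048) fell and CALB2 rose (1.21, FDR 0.032). The epithelial markers EPCAM (0.77, FDR 0.28), KRT8 (0.56, FDR 0.066) and KRT18 (0.42, FDR 0.085) had values above 0 with siTAZ #2, the median of the 4 tested being 0.49, and KRT19 lost its call in 14 of 18 alternatives, DESeq2 among them. LMOD1, ACTG2, LUM and DCN with siTAZ #2 and PDGFRA with siTAZ #1 passed under all alternatives, while TEK, CD68, KRT19, CALB2, TAGLN and DES with siTAZ #2 and LUM and DCN with siTAZ #1 did not pass when either siNTC library was left out. TEK and CD68 carried most of the endothelial and immune sums, whose defining genes CDH5 and PTPRC had under 10 counts. The part of these shifts in the values of the 10 transcription factors was not tested. In RNA from whole cultures, fewer cells of a kind and less RNA per cell cannot be told apart.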

How the data were processed

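Total RNA of HFL-1 cells was sequenced on an Ion Proton 48 h after transfection with siNTC, siTAZ #1 or siTAZ #2, in 2 libraries per group. The authors used TMAP for alignment to hg19 and HTSeq 0.6.1 for counting, and the deposited values are raw counts of reads per gene that were not normalized. Strand setting and counting mode are not given in the sources used here. Of 23368 entries, 13 carry a date in place of a symbol and were left out (0.0458% to 0.0506% of counts). Counts per library were 15990711 and 16210968 (siNTC), 15648055 and 32078188 (siTAZ #1), and 21009532 and 16447069 (siTAZ #2), so that counting error was small for all 10 genes. With 2 libraries per group, p-values rest on a spread shared across groups and genes.

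The filterByExpr filter, TMM factors and quasi-likelihood test of edgeR 4.0.16 (R 4.3.3) were applied to all 6 libraries at once. P-values of the 14053 genes that passed the filter were adjusted together by the Benjamini-Hochberg method (FDR, threshold 0.05). Standard errors and 95% intervals were derived from the F statistic. Values in brackets after a gene are log2 fold changes. Positions, transcript lengths and GC content came from GENCODE v44 on GRCh37, to which 21373 symbols were matched, 1921 of them through a synonym, and CPM per kb used the length of 1 transcript per gene. Genes not among the 10 were named by a rule: in each list, at most 4 genes that passed the test with either siRNA, by size of change, and GLI1, PTCH1, HHIP, PBX2, PBX3, FGF10, WNT2 and BMP4. Other genes named were chosen after their values were seen. Some genes of these lists were fitted with the rest but are not reported here. The members and lists were chosen with earlier results of these data known. The fit was tested on simulated data. Of 8 antisense and divergent noncoding neighbours looked for, 0 were in the table. Alternatives were DESeq2 1.42.0, edgeR's exact test on 4 libraries, scaling by RLE, by the upper quartile or by library totals, no filter on low counts, genes with a mean count of 50 or more, a fit restricted to 4 libraries, the replicate number as a block, each library left out, no genes from RANGAP1 through Y, a robust prior, an offset for GC content, libraries thinned to the smallest total, and an FDR of 0.1.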

Additional observations from a re-analysis of the deposited data

Results flagged for a closer look

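For 7 of the 10 genes, the change with siTAZ #1 differed from that with siTAZ #2 in the direct comparison of the siRNAs. The log2 difference, siTAZ #1 over siTAZ #2, was 1.51 for GLI3 (FDR 0.001), 1.20 for TCF21 (FDR 0.0031) and 1.08 for MEIS2 (FDR 0.0047). It was 0.84 for FOXF2 (FDR 0.014), 0.64 for TBX5 (FDR 0.017), 0.53 for TBX3 (FDR 0.0097) and 0.44 for TBX2 (FDR 0.017). WWTR1 was lower with siTAZ #1 than with siTAZ #2 by 0.70 on the log2 scale (FDR 0.005, and 0.24 in edgeR's exact test). TBX4, TBX5, TCF21, MEIS1, MEIS2 and GLI3 fell with siTAZ #2, where WWTR1 was the higher. TBX2 and TBX3 had larger values against siNTC with siTAZ #1 (0.87 and 0.83) than with siTAZ #2 (0.43 and 0.30). What sets the siRNAs apart was not tested.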

How the results depend on the processing

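Of the 19 alternatives, all kept the calls of GLI3, MEIS2 and TBX5 with siTAZ #2 and of GLI3, MEIS2 and TCF21 between the siRNAs. With an offset for GC content, TBX2 with siTAZ #2 turned to -0.10, the uncalled difference of MEIS1 between the siRNAs to -0.049 and the smooth muscle gene SMTN with siTAZ #2 to -0.02. No other value of the 10 genes, WWTR1 or a called gene of the lists turned. The number of the 10 genes that fell with siTAZ #1 was 1 in place of 0 in DESeq2, without the genes from RANGAP1 to Y, with the offset for GC content and at an FDR of 0.1. The number that rose with siTAZ #1 was 1 in place of 3 in edgeR's exact test. FOXF2 was added to these in DESeq2 (FDR 0.042), and GLI3 with the offset for GC content (FDR 0.032) and at an FDR of 0.1. Among genes that fell with siTAZ #2, FOXF2 was added in DESeq2 (FDR 0.038), the exact test (FDR 0.012) and the fit of 4 libraries (FDR 0.02). It was also added there without the genes from RANGAP1 to Y (FDR 0.044) and with the offset for GC content (FDR 0.013). The number that rose with siTAZ #2 was 2 in place of 1 in DESeq2, the exact test, at a mean count of at least 50, in the fit of 4 libraries, without the genes from RANGAP1 to Y, with a robust prior and at an FDR of 0.1, TBX3 being the added gene. In the exact test, 3 in place of 7 genes differed between the siRNAs, with FOXF2 (FDR 0.15), TBX2 (FDR 0.4), TBX3 (FDR 0.28) and TBX5 (FDR 0.33) lost. Leaving out 1 library at a time gave 0 to 1 genes that fell and 0 to 4 that rose with siTAZ #1, 3 to 7 that fell and 0 to 2 that rose with siTAZ #2, and 3 to 8 higher and 0 lower with siTAZ #1 than with siTAZ #2. These fits take a lone library to vary as the other groups do. The cause of these shifts was not tested.

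Over all genes tested, the replicate differences had correlations of -0.001, 0.011 and -0.077 between groups. These include the genes nearly missing in siTAZ #1 replicate 2 and cannot show whether the replicates were paired. With the replicate block, 2 genes rose and 0 fell with siTAZ #1, 1 rose and 5 fell with siTAZ #2, and 7 differed between the siRNAs, TCF21 with siTAZ #1 (FDR 0.054) and MEIS1 with siTAZ #2 (FDR 0.077) being lost. The near-missing counts of siTAZ #1 replicate 2 raised the common dispersion of the fit from 0.0186 to 0.0807.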
